A study of Homo sapiens with 4 samples.

Results

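The genes described here are 10 transcription factors and early response genes of A549 cells, namely EGR1, FOS, FOSB, FOSL1, FOSL2, JUN, JUNB, JUND, ATF3 and IER3. They were taken by name, with earlier results of these data known. Every probe set annotated to exactly 1 of these symbols was used. This gave 37 probe sets for 10 of the 18132 genes that have a probe set of their own on the array. Counts of members beside the shares of all genes are thus a description and not independent evidence. A549 is an established human lung adenocarcinoma line. Its cells were left untreated, received dihydroberberine at 25 μmol/L or sunitinib at 2 μmol/L, or received both drugs at these doses, and RNA was taken after 48 h. Berberine is a plant alkaloid, of which dihydroberberine is the reduced derivative. Sunitinib inhibits receptor tyrosine kinases. Each of the 4 conditions holds 1 array, so no difference between conditions has a replicate check, no test was run, and "higher" and "lower" compare single libraries.

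AP-1 is a dimer of basic leucine zipper proteins, formed by a Jun protein with a Fos protein, with another Jun protein or with an ATF protein, and it binds a short palindrome in promoters and enhancers. FOS, JUN and EGR1 are textbook immediate early genes, transcribed within minutes of growth factor or stress signals through ERK, JNK and p38 kinases, without new protein synthesis. FOSL1 and FOSL2 follow more slowly and last longer, and FOSL1 protein is stabilised by ERK. EGR1 is a zinc finger factor whose own promoter carries binding sites for serum response factor, IER3 is a short-lived early response protein linked to survival and ERK signalling, and ATF3 is a stress-induced factor that often represses.

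Promoter sequences were read for the members with an entry in a RefSeq table of assembly GRCh38.p14, which held 8 of the 10 (all except FOSL1 and IER3), with separate starts for ATF3. The 250 bases before each start were searched on both strands for the AP-1 site TGANTCA, the CRE-like site TGACNTCA, the CArG box bound by serum response factor, the EGR1 site GCGNGGGCG, the ETS site CCGGAAGT and the NF-kB site, and on the gene strand for the TATA box TATAAA. No match overlapped another in these windows. A match is a description of the letters, not evidence of binding. The 4 windows below are shown because EGR1 and JUN were among the members that differed most between libraries, while JUND and ATF3, which like JUN hold a CRE-like match, differed less. Each is written 5′ to 3′ on the gene strand and ends at the base before the start, with matches in capitals. They lie at chr5:138465229-138465478 on the plus strand for EGR1, chr1:58784048-58784297 on the minus strand for JUN, chr19:18281623-18281872 on the minus strand for JUND and chr1:212565157-212565406 on the plus strand for the first start of ATF3.
EGR1: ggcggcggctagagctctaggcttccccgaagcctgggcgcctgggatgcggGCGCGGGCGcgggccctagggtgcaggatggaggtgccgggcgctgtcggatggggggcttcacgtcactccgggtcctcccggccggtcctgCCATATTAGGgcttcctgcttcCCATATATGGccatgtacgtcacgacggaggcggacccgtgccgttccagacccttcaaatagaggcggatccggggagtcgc
JUN: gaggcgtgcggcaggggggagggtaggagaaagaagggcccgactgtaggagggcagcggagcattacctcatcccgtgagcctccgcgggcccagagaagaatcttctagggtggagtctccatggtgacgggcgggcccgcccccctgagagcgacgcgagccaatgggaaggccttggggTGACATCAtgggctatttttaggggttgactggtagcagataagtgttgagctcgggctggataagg
JUND: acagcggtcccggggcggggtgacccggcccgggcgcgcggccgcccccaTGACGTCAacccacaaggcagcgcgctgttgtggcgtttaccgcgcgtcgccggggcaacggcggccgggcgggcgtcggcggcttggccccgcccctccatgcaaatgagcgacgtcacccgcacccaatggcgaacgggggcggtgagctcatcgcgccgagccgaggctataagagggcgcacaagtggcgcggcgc
ATF3: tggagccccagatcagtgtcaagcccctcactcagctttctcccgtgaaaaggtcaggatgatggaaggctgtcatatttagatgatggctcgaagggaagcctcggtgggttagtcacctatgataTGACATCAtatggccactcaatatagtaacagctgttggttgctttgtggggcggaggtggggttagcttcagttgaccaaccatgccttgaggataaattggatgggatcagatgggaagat

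In the EGR1 window the capitals mark an EGR1 site from base -198 to base -190 and CArG boxes from -105 to -96 and from -83 to -74, counted back from the start. EGR1 was the only 1 of the 8 members with a CArG box in this window, which 1.16% of 35116 promoter windows hold. JUN carried a CRE-like site from -67 to -60, JUND one from -200 to -193 and ATF3 one from -123 to -116. These letters are found in 6.87% of all windows. A TATA box, held by 6.80% of windows, was found close to the start in FOS, FOSB and JUNB, and from -230 to -225 before the other start of ATF3, whose window is not printed. The AP-1 site (6.57% of windows), the ETS site (3.42%) and the NF-kB site (9.96%) were found in none of the 8, which says only that these letters are not in these 250 bases.

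The values are log2 signals per probe set. A floor of 6.75, the median of all gene probe sets on the 4 arrays, was used for dim values, and 10958 genes had at least 1 array at or above it. All 10 members did, and 9 of them were at or above the floor on every array. The exception was EGR1, whose brightest probe set passed only through the libraries with dihydroberberine and so had to differ from the others. Of the 37 probe sets, 16 lay at or above the floor on all arrays, 13 on some and 8 on none. Libraries under the floor were set to it before a fold was taken, and such a fold is a lower bound, given as "at least". The probe set with the highest mean over the 4 arrays, called here the brightest, stands for its gene. The median gene signal was 6.73 to 6.76 on the 4 arrays, which correlated with r between 0.986 and 0.994. The dihydroberberine array stood apart in its controls. Its Alu and 18S rRNA signals were lower than untreated by log2 differences of -0.41 and -0.63, against 0.03 and -0.21 for the combination, and background control probe sets with 15 to 25 G or C bases were higher by 0.45, against 0.29 with sunitinib and 0.25 with both drugs. Their part in the results was not tested. Differences with dihydroberberine are therefore also given from the combination against sunitinib, which does not use that array. The background controls ran from 4.42 to 11.95 with their base composition, so the floor is no limit of detection. Of the markers of an epithelial line, KRT8, KRT18, KRT19, AKR1C1, ALDH1A1 and NQO1 lay between log2 11.10 and 14.77, while EPCAM and CDH1 were under the floor on every array. Of 11 markers of blood, vessel and connective tissue cells, 6 were under the floor on every array, PTPRC (3.81 to 3.92), PECAM1 (5.42 to 5.56), COL1A2 (4.50 to 5.01), CD3E, COL1A1 and COL3A1. The other 5 passed it on at least 1 array, among them CD79A at 6.83 to 7.39, VWF at 7.28 to 7.50 and PDGFRB at 6.71 to 7.44. The macrophage genes CD14 and CD68 were at 8.82 and 8.16 in untreated cells, and CD14 was at 5.76 to 6.75 in the treated libraries.

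The comparison of dihydroberberine with no drug asks what this compound did alone. Of the 10 members 4 were 2-fold or more higher, EGR1, FOSL1, JUN and IER3, and 0 were lower by that size. Of all 10958 genes 0.849% were higher and 3.08% lower by that size. EGR1 is counted among the 4, but it had to be higher, since its brightest probe set passed the floor only with dihydroberberine. The median over the members was 0.65, against -0.02 over all genes. Since the members were chosen with earlier results known, the contrasts with all genes are not independent evidence. Over single probe sets with values as deposited, 33 of 37 had a positive difference, against 54.9% of all 44988 named probe sets. Past 2-fold, 16 were higher and 0 lower, against 0.734% and 1.94% of all. EGR1 gave 5 of the 16, FOSL1 4, JUN 3, FOS 2, and FOSL2 and IER3 1 each. For those of EGR1, FOS and FOSL2 the untreated value was under the floor. The same held for those of JUN other than its brightest. Counts over probe sets, here and below, weigh a gene by how many it has and are not independent evidence. The dihydroberberine library held the highest value of the 4 for 28 of the 37 probe sets, against 32.3% of all named probe sets. The untreated and the sunitinib library each held the lowest value for 17, against 29.5% and 20.4% of all named probe sets.

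**Figure D1:**
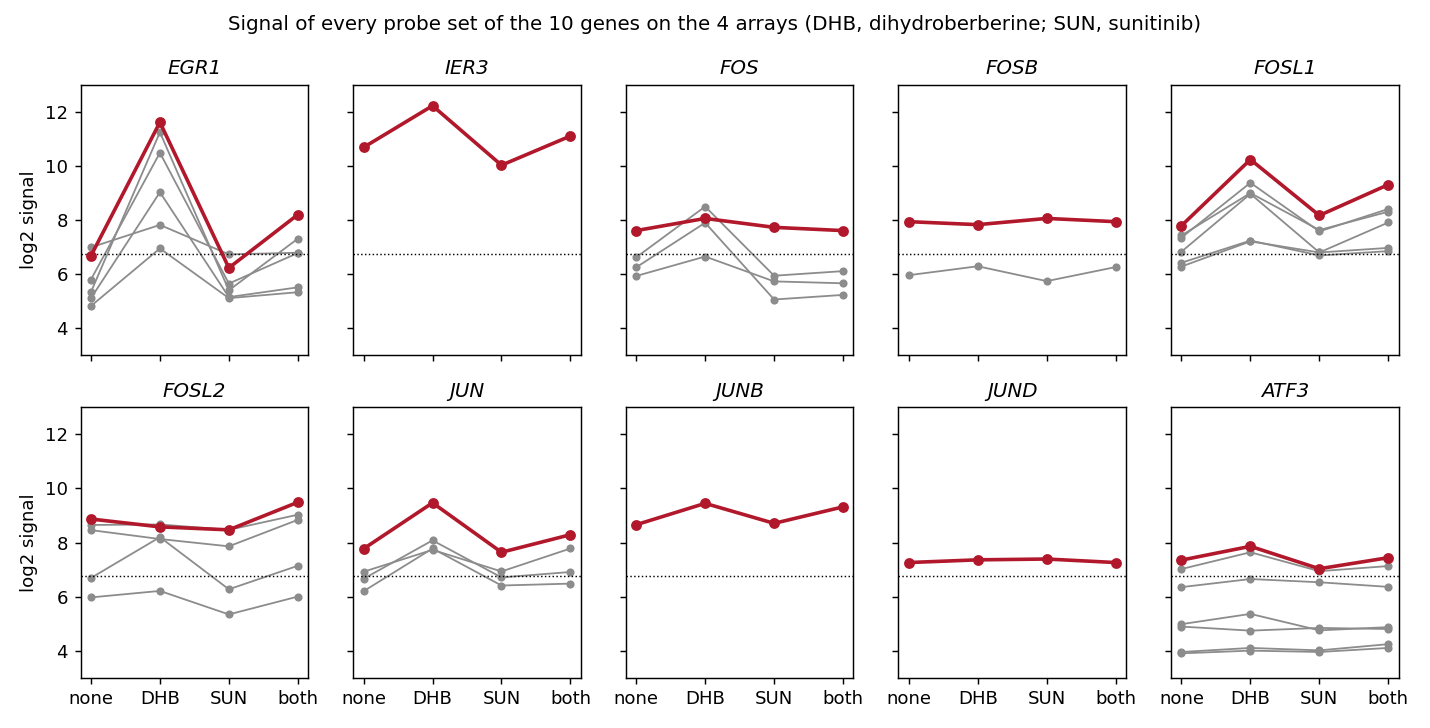
Log2 signal of every probe set of the 10 genes in cells given no drug, dihydroberberine (DHB), sunitinib (SUN) or both, 1 array each; red is the brightest probe set of a gene, grey the others, and the dotted line the floor of 6.75. EGR1, IER3, FOSL1 and JUN peak with dihydroberberine, and FOSB and JUND stay nearly level.

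EGR1 had the largest difference of the 10958 genes with dim values raised to the floor. Its brightest probe set read 6.68 in untreated cells, 11.62 with dihydroberberine, 6.23 with sunitinib and 8.20 with both drugs. The untreated and sunitinib libraries were thus under the floor, the dihydroberberine library was far above it, and the combination lay between. The difference with dihydroberberine alone was at least 29.1-fold. With values as deposited, the 6 probe sets of EGR1 all had a positive difference with dihydroberberine, and 5 were past 2-fold. As deposited, their log2 differences ran from 0.83 to 5.91 with a median of 4.30 and an SD of 1.90 between probe sets, which is a spread within the same arrays and not an error between libraries. The one at 0.83 read 6.99, 7.82, 6.73 and 6.79 in the order given above. A probe set that read 5.34, 11.25, 5.40 and 7.31 gave the largest difference, at least 22.5-fold from the floor.

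Sunitinib alone left EGR1 under the floor, and the 6 probe sets differed from untreated by -0.45 to 0.29. With sunitinib already present, dihydroberberine gave a brightest EGR1 signal at least 2.73-fold higher. The same library was 10.7-fold lower than dihydroberberine alone, the lowest rank of the 10958 genes with dim values raised to the floor. As deposited, all 6 probe sets were at least 2-fold lower in that comparison, by log2 differences of -3.94 to -1.03. The one that read 6.95 with dihydroberberine and 5.33 with both was at least 1.15-fold lower from the floor. For the mean of the 6 probe sets the combination lay at or under the floor, so its difference from sunitinib was 0 on the floored scale. Dihydroberberine alone was thus the highest library on all 6 probe sets, and the combination stood above 8 on the brightest alone.

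IER3 has 1 probe set, which read 10.69 in untreated cells, 12.23 with dihydroberberine, 10.03 with sunitinib and 11.11 with both. All 4 libraries were well above the floor, with sunitinib lowest and dihydroberberine highest. The difference with dihydroberberine was 2.90-fold alone and 2.11-fold in the combination against sunitinib. Sunitinib went with a 1.58-fold lower signal alone and a 2.17-fold lower signal when added to dihydroberberine. By brightest probe sets, IER3 was the only member at least 1.5-fold lower with sunitinib alone. A dimmer FOSL2 probe set, above the floor on all arrays, was 1.51-fold lower. Some FOS and FOSL2 probe sets with both values under the floor were also lower by at least 1.5-fold as deposited.

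Among the Fos genes, FOSL1 differed most. This factor, also called FRA-1, is the Fos protein most often tied to invasive epithelial tumour cells. Its brightest probe set read 7.79 in untreated cells, 10.24 with dihydroberberine, 8.17 with sunitinib and 9.31 with both, so both libraries with dihydroberberine lay above both without it. The difference was 5.49-fold with dihydroberberine alone, the fifth highest of 10958 genes on the floored scale, 2.89-fold for the combination against untreated and 2.21-fold for the combination against sunitinib. All 6 probe sets were positive in these 3 comparisons. With dihydroberberine alone they ran from 0.82 to 2.46 (SD 0.67 between probe sets), and 4 were past 2-fold. When sunitinib was present they ran from 0.17 to 1.14, with 2 past 2-fold. The lower values came from a pair of probe sets that read 6.42 and 6.28 in untreated cells, under the floor, and 7.24 and 7.21 with dihydroberberine. FOSL1 was 1.31-fold higher with sunitinib alone, while adding sunitinib to dihydroberberine went with a 1.90-fold lower signal.

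FOS, the partner of JUN in the classical AP-1 dimer, gave readings that depended on the probe set. The brightest read 7.61, 8.06, 7.73 and 7.61 in cells with no drug, dihydroberberine, sunitinib and both, a difference of 0.45 with dihydroberberine, which is also the shift of the background controls on that array. Another read 6.62, 8.50, 5.94 and 6.11, and a further one 6.25, 7.90, 5.06 and 5.23. In both of these only the dihydroberberine library was above the floor, and the differences from untreated were at least 3.35-fold and at least 2.21-fold. The fourth stayed under the floor with 5.93, 6.65, 5.73 and 5.66. As deposited, all 4 were higher with dihydroberberine, by 0.45 to 1.87, and all 4 were lower in the combination than with dihydroberberine alone, by -0.45 to -2.67. Between the combination and sunitinib they differed by only -0.12 to 0.18. None of the 4 was 2-fold higher in the combination than in untreated cells.

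FOSL2, also called FRA-2, was split between its probe sets. The brightest read 8.87 in untreated cells, 8.58 with dihydroberberine, 8.47 with sunitinib and 9.49 with both, so that each drug alone was lower than untreated and the combination was the highest. Those that read 8.65, 8.67, 8.47 and 9.03, and 8.46, 8.13, 7.86 and 8.84, likewise had the combination highest. A further probe set read 6.69, 8.20, 6.27 and 7.14, which is the order seen for EGR1 and JUN, and its difference with dihydroberberine was at least 2.73-fold. The fifth was under the floor throughout. The 5 probe sets agreed in sign in some comparisons. All were lower with sunitinib alone, by -0.64 to -0.19. All were higher in the combination than in untreated cells, by 0.02 to 0.62. With sunitinib present, dihydroberberine left all of them higher, by 0.57 to 1.02, and the brightest was 2.03-fold higher, whereas with dihydroberberine alone they ran from -0.33 to 1.51. Which transcripts each probe set reads was not analysed here.

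FOSB showed no difference above 0.33 with dihydroberberine alone. Its brighter probe set read 7.94, 7.83, 8.06 and 7.94 and the other one 5.96, 6.29, 5.74 and 6.26, under the floor. The brighter probe set does not separate the libraries with dihydroberberine from those without it. The dim one was higher in both libraries with dihydroberberine than in both without it, with every value under the floor.

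JUN, the founding member of the Jun family and a target of JNK, was higher with dihydroberberine. The brightest probe set read 7.77 in untreated cells, 9.47 with dihydroberberine, 7.64 with sunitinib and 8.29 with both. The dihydroberberine library was the highest, the combination second, and the other libraries lay 0.13 apart. The difference was 3.27-fold with dihydroberberine alone and 1.57-fold in the combination against sunitinib, and the combination was 2.27-fold lower than dihydroberberine alone. The 4 probe sets had differences of 0.81 to 1.71 with dihydroberberine (SD 0.40), with 3 past 2-fold. A probe set that read 6.92, 7.73, 6.93 and 7.78 stood apart, since the combination differed from dihydroberberine alone by only 0.04, where the other 3 were lower by -1.29 to -1.17.

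JUNB, a Jun protein that often restrains proliferation, read 8.66 in untreated cells, 9.45 with dihydroberberine, 8.71 with sunitinib and 9.32 with both. Both libraries with dihydroberberine were above both without it. The difference was 1.73-fold alone and 1.52-fold in the combination against sunitinib, under 2-fold in each, and the combination differed from dihydroberberine alone by -0.13. JUND, which is made in resting cells as well, read 7.26, 7.36, 7.39 and 7.26 in the same order, a range narrower than the shifts of the background controls.

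ATF3 had 7 probe sets, of which 5 were under the floor on every array. The brightest read 7.35 in untreated cells, 7.86 with dihydroberberine, 7.03 with sunitinib and 7.44 with both. A second read 7.02, 7.64, 6.94 and 7.13. Dihydroberberine was highest and sunitinib lowest in both, and the differences with dihydroberberine were 1.43-fold and 1.53-fold, near the 0.45 shift of the background controls on the log2 scale. ATF3 passed 2-fold in none of the 5 comparisons.

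**Figure D2:**
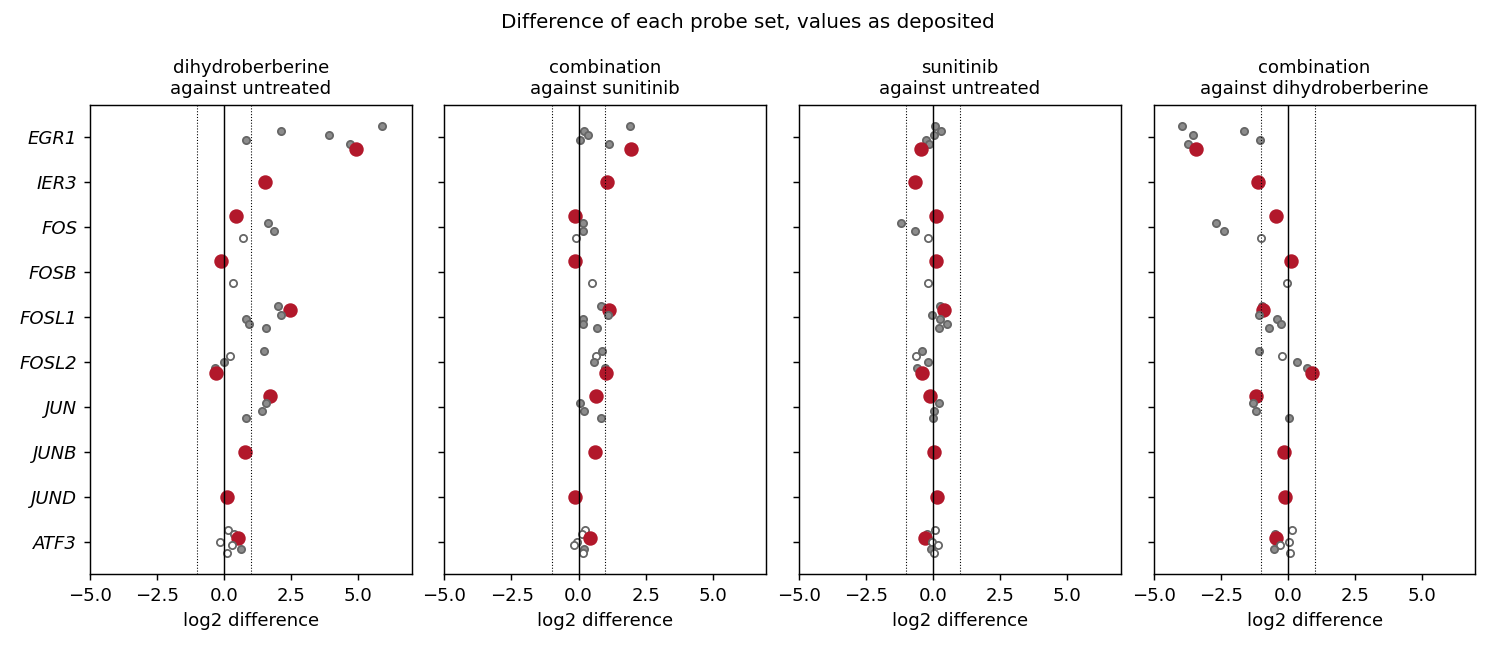
Log2 difference of every probe set of the 10 genes, values as deposited, for dihydroberberine without and with sunitinib and for sunitinib without and with dihydroberberine; red is the brightest probe set, grey the others, open circles lie under the floor on all 4 arrays, and dotted lines mark 2-fold. EGR1 runs from 0.83 to 5.91 with dihydroberberine alone and from -3.94 to -1.03 when sunitinib is added to it.

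The differences made by dihydroberberine were also read in the presence of sunitinib, from the combination against sunitinib. There 4 of 10 members were 2-fold or more higher, EGR1, FOSL1, FOSL2 and IER3, and 0 were lower by that size, against 0.584% and 0.0821% of all genes. The median of 0.63 stood against 0.00 over all genes. EGR1 again had to be higher, because its brightest probe set was under the floor with sunitinib. Of the 4 members past 2-fold with dihydroberberine alone, EGR1, FOSL1 and IER3 were past it here as well, JUN had 0.65, and FOSL2 replaced it. The count of 4 was 1 when a gene's probe sets were averaged (IER3), 1 with a floor at the 75th percentile (IER3) and 1 without probe sets of the _x_at and _s_at kinds (FOSL2). Over single probe sets 31 of 37 were positive, against 47.5% of all named probe sets. Past 2-fold, 7 were higher and 0 lower, against 0.44% and 0.0822% of all.

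The comparison of sunitinib with no drug asks what the kinase inhibitor did alone. Past 2-fold, 0 members were higher and 0 lower, against 0.128% and 0.429% of all genes. The median was 0.03, against -0.03 over all genes. IER3 at -0.66, FOSL2 at -0.40 and ATF3 at -0.32 were the lowest, and FOSL1 at 0.39 was the highest. Over single probe sets 18 of 37 were positive, against 51.7% of all named probe sets. Past 2-fold, 0 were higher and 1 lower, against 0.14% and 0.36% of all named probe sets. It was 1 of FOS, with a difference of -1.19, and its untreated and sunitinib values of 6.25 and 5.06 were both under the floor.

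Adding sunitinib to dihydroberberine gave another picture. Relative to dihydroberberine alone, 0 members of the combination were 2-fold or more higher and 3 were lower by that size, EGR1, JUN and IER3, against 2.42% and 0.365% of all genes. FOSL1 followed at -0.93. The median was -0.44, against 0.00 over all genes, and past 2-fold 0 of 37 probe sets were higher and 14 lower, against 1.56% and 0.347% of all named probe sets. Only FOSL2, at 0.91, and FOSB, at 0.11, were positive. This comparison rests on the dihydroberberine array, which stood apart in its controls.

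Against untreated cells, the combination held 2 members 2-fold or more higher, EGR1 and FOSL1, and 0 lower by that size, against 0.885% and 1.33% of all genes. EGR1 had to be higher here too, because its brightest probe set was under the floor in untreated cells. Over single probe sets 5 were at least 2-fold higher and 1 lower, against 0.742% and 0.885% of all. The lower one was of FOS, with 6.25 untreated and 5.23 with both drugs, each under the floor. The median was 0.47, against -0.01 over all genes. EGR1 was at least 2.73-fold and FOSL1 2.89-fold higher, JUNB and FOSL2 followed with 0.66 and 0.62, and FOS, FOSB and JUND were at 0.00. The count was 0 when a gene's probe sets were averaged, where FOSL1 had 0.94. The comparisons against untreated share that library, as do the comparisons with the combination, so their values are not independent of each other.

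The deviation from additivity is the log2 difference of the combination from untreated less the differences of both drugs alone. It was negative for 9 of the 10 members by their brightest probe sets, against 42.9% of all 10958 genes, whose median was 0.06. FOSB, at -0.01, is 1 of the 9, and it was at 0.02 with the arrays centred on the median and at 0.09 with the mean of its probe sets. The deviation was -3.41 for EGR1 with the floor, and the 6 probe sets as deposited gave -4.00 to -0.78. With untreated and sunitinib both raised to the floor, the -3.41 is the same value as the combination against dihydroberberine. Without the floor the brightest probe set gave -2.96. FOSL1 had -1.31 (6 probe sets, -1.31 to -0.65), and JUN had -1.05 (4 probe sets, -1.51 to 0.04). FOS had -0.57 for the brightest and down to -1.69 for the others. FOSL2 was the exception at 1.31, where 4 of 5 probe sets were positive and the one with the order of EGR1 had -0.64. JUNB, JUND, ATF3 and FOSB, with -0.23 to -0.01, were close to additive on this scale, and IER3 had -0.46. ATF3 was negative on 4 of its 7 probe sets, which ran from -0.48 to 0.11. The measure subtracts the dihydroberberine array, which stood apart in its controls, with background controls higher by 0.45 than untreated. The part of that array in the negative signs was not tested.

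**Figure D3:**
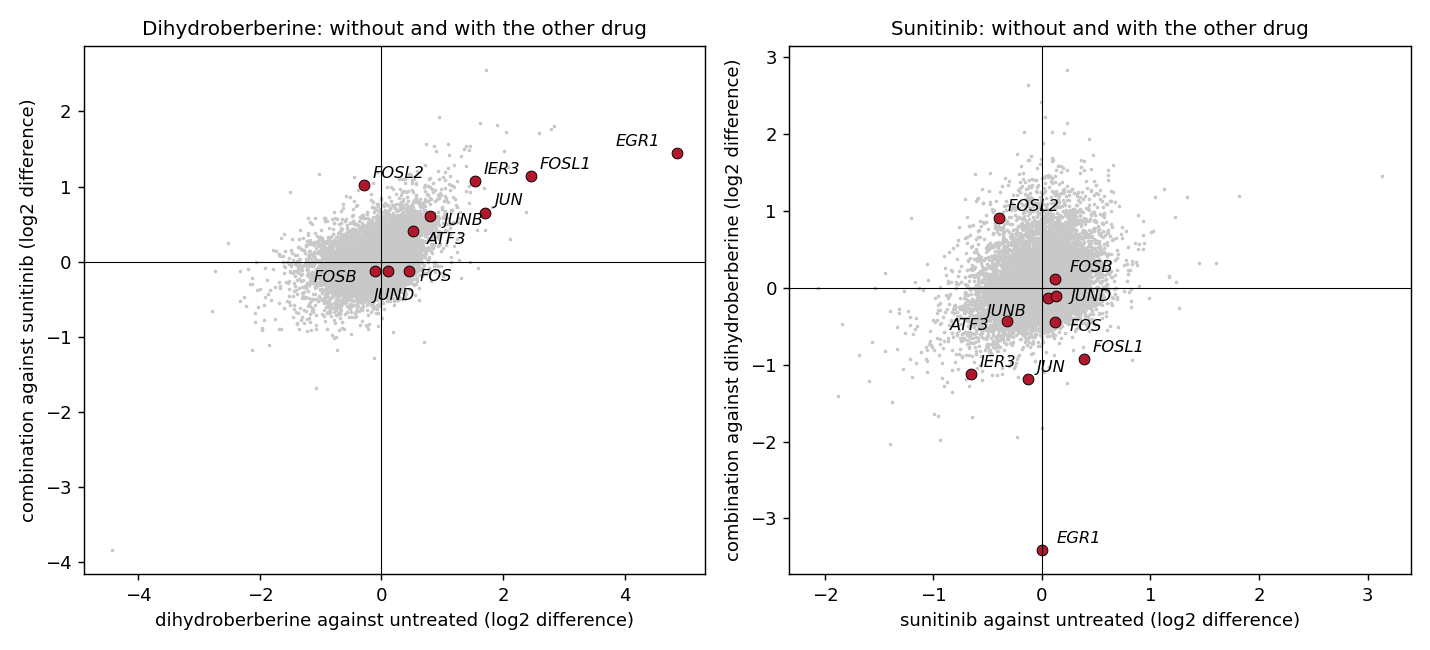
Log2 difference of each of 10958 genes (grey) and of the 10 members (red) for dihydroberberine (left) and sunitinib (right), without the other drug on the x axis and with it on the y axis, dim values raised to the floor. EGR1, FOSL1, JUN and IER3 lie at the upper right on the left and below zero on the right y axis, and FOSL2 lies apart with 1.02 and 0.91 on the y axes.

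The genes with the most similar pattern were found by the Euclidean distance between the log2 differences of the 3 treated libraries from untreated, over all 10958 genes, for each of the 5 members whose libraries spanned at least 2-fold. IER3 was nearest to DUSP6, a phosphatase of ERK, at a distance of 0.13, with CPA4 and SGK1 at 0.37 and 0.39. JUN was nearest to PHLDA1 at 0.23, followed by DDX10 at 0.35 and DUSP1, another MAPK phosphatase, at 0.45. FOSL1 had GDF15, a stress-induced cytokine, at 0.38, IL1A at 0.55 and TIPARP at 0.61. EGR1 had no close neighbour, since the nearest gene, DUSP5, lay 2.19 away, and CCN1 and TIPARP followed at 2.30 and 2.41. FOSL2 was nearest to SERTAD4, NANOS1 and SIM2 at 0.19, 0.24 and 0.26. SERTAD4 read 8.03, 7.57, 7.55 and 8.68, again with the combination highest, and NANOS1 and SIM2 had at least 1 library under the floor. With 4 arrays such likeness is a description only.

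Other genes of the pathway were counted from lists chosen with earlier results of these data known, so their direction is not independent evidence. With dihydroberberine, 0.849% of all genes were higher and 3.08% lower by 2-fold or more. Of 15 ERK feedback inhibitors past the floor (18 listed), 3 were at least 2-fold higher with dihydroberberine and 0 lower, with a median of 0.13. These were the phosphatases DUSP5 (2.80), DUSP1 (1.89) and DUSP6 (1.46), on the log2 scale, while SPRED2, an inhibitor of RAF activation, had -0.92. Their median in the combination against sunitinib was 0.44, and 12 of 15 were positive, against 49.4% of all genes. Of 28 other immediate early genes past the floor (35 listed), 4 were at least 2-fold higher and 1 lower with dihydroberberine, with a median of 0.22. CCN1 had 2.85, SGK1 1.22 and ZFP36, which destabilises AU-rich messages, 1.14, whereas its relative ZFP36L2 had -1.21. In the combination against sunitinib 25 of these 28 were positive, against 49.4% of all genes, with a median of 0.28.

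Genes of proteins that pair with AP-1 or stand upstream of it were counted beside the median of all genes, which was -0.02 with dihydroberberine. By 2-fold or more, 0.849% of all genes were higher and 3.08% lower with dihydroberberine. Of 15 ATF, BATF, MAF and related partners past the floor (20 listed), 1 was at least 2-fold higher with dihydroberberine, DDIT3, a stress-induced C/EBP factor, at 1.24, and MAFF followed with at least 0.96. MAFF passed the floor only through the libraries with dihydroberberine and so had to be higher there. The median of the 15 was 0.04. Of 19 genes of the ERK, JNK and p38 cascades, among them EGFR and HRAS, 0 were past 2-fold in either direction with dihydroberberine. The median of the 19 was -0.13. This list held 26 genes, and the rest had no probe set of their own. The median of serum response factor, its cofactors, ETS factors and the EGR1 corepressors (10 genes) was -0.17, and SRF itself had -0.60 on its brightest probe set and -0.07 on the other. MRTFB had -1.10 on its brightest and 0.50 on another. NAB1, a corepressor of EGR1, was 2.16-fold higher when sunitinib was added to dihydroberberine, although another of its 7 probe sets had -0.28.

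Of 21 known AP-1 target genes past the floor (32 listed), 18 were positive with dihydroberberine, against 46.1% of all genes. Past 2-fold, 7 were higher and 1 lower, against 0.849% and 3.08% of all genes. The median of the 21 was 0.49. MMP1, the interstitial collagenase whose promoter is a classical AP-1 target, was at least 4.34-fold higher. It read 5.83, 8.87, 5.57 and 7.05 with no drug, dihydroberberine, sunitinib and both. MMP1 thus passed the floor only through the libraries with dihydroberberine and had to be higher there, and it is counted among the 18 and the 7. IL1A was 4.06-fold, NT5E 3.72-fold and CXCL8 3.30-fold higher. In the combination against sunitinib 5 were at least 2-fold higher and 0 lower, against 0.584% and 0.0821% of all genes. CXCL8 was 5.87-fold, NT5E 3.54-fold and AXL at least 2.92-fold higher, where another AXL probe set had -0.18. In the combination against dihydroberberine 16 of the 21 were negative, where 48.3% of all genes were positive. IL6 was 4.09-fold lower on its brightest probe set, with a log2 difference of -0.46 on its other one, MMP1 was 3.53-fold lower and CCND1 2.52-fold higher. With sunitinib alone IL6 was 2.64-fold, CXCL8 2.52-fold and PLAU, the urokinase, 2.01-fold lower. Of 13 known EGR1 targets past the floor (18 listed), 1 was at least 2-fold higher with dihydroberberine, NDRG1 at 2.15-fold, and 1 lower, F3 (tissue factor) at 2.49-fold, with a median of 0.12.

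**Figure D4:**
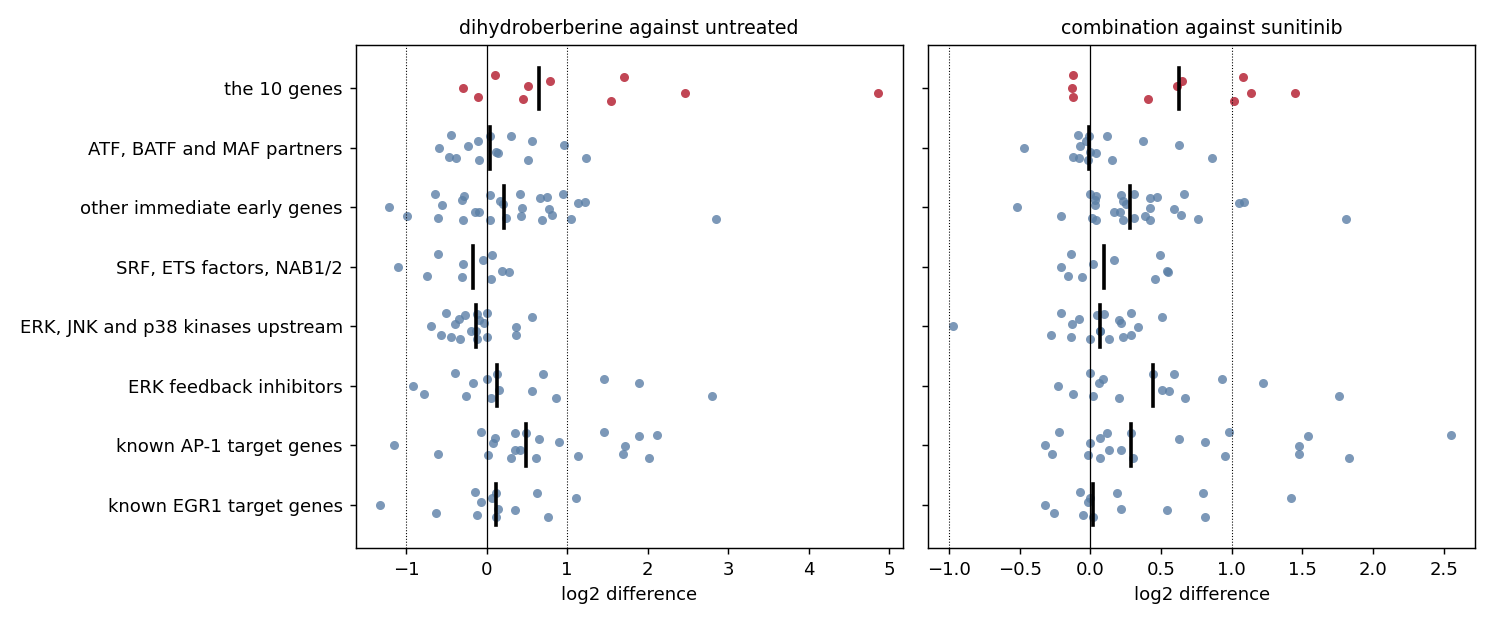
Log2 difference of each gene past the floor (points) in the 10 genes and 7 related lists, for dihydroberberine against untreated (left) and the combination against sunitinib (right); black bars are medians and dotted lines mark 2-fold. The medians of the 10 genes, 0.65 and 0.63, stand beside 0.49 and 0.29 for AP-1 targets and -0.13 and 0.07 for the kinase cascades.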

How the data were processed

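RNA of 4 A549 cultures, 1 per condition, was extracted with TRIZOL and labelled with a GeneChip 3′ IVT kit, per the labels' protocols. An Agilent array is named in the design text, whereas the probe set names and controls are of an Affymetrix array, and this was followed. The authors deposited log2 probe set summaries, running from 3.01 to 15.4. The submitters' processing notes name Affymetrix Expression Console. Version, summarization and scaling were not given in the sources used here.

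Groups came from the sample labels. Of 49293 gene probe sets, 44988 had 1 symbol in a platform annotation, 1832 several and 2473 none here, and 0 symbols differed from RefSeq. Differences of log2 values were computed with Python 3.11.15 and pandas 2.3.3, counted at 2-fold and checked on simulated data. All 10 members are named, with up to 4 genes of largest difference from each list and the 3 nearest genes of a member. The members and lists were chosen with earlier results of these data known. The only spread available, the SD over a gene's probe sets, had a median of 0.12 with dihydroberberine over 5563 genes and a 95th percentile of 0.49. It is not the error between libraries.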

Additional observations from a re-analysis of the deposited data

Results flagged for a closer look

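For 3 of the 10 members the brightest probe set gave opposite signs for a drug in the pairs of libraries without and with the other drug, each no smaller than the median SD between probe sets at the digits printed. With 1 array per condition the difference between the pairs was not tested. FOSL2 had a log2 difference of -0.29 with dihydroberberine alone and 1.02 in the combination against sunitinib, and of -0.40 with sunitinib alone and 0.91 in the combination against dihydroberberine. FOSL1 had 0.39 with sunitinib alone and -0.93 when sunitinib was added to dihydroberberine. FOS had 0.45 with dihydroberberine alone and -0.12 in the combination against sunitinib, and 0.12 with sunitinib alone and -0.45 in the combination against dihydroberberine. For FOS the other 3 probe sets were lower than untreated with sunitinib alone, so the turn in the sunitinib comparison holds for the brightest probe set only. In the combination against sunitinib 2 of the 4 FOS probe sets were positive, at 0.17 and 0.18. The mean of the FOS probe sets gave 0 there on the floored scale. For FOSL2, 2 of the 5 probe sets were lower with dihydroberberine alone, and all 5 were higher in the combination against sunitinib. With the mean of all probe sets FOSL2 had 0.23 and 0.82 in these comparisons, so the signs were not opposite for dihydroberberine, while for sunitinib it had -0.45 alone and 0.14 in the combination against dihydroberberine.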

How the results depend on the processing

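The count of members at least 2-fold higher with dihydroberberine was 4, and between 3 and 5 under the alternatives, and 4 without the dihydroberberine library, taken from the combination against sunitinib, an alternative that was chosen after seeing the data. The other counts at least 2-fold lower or higher stayed within 1.5 times, except these. For the combination against untreated the higher count of 2 became 0 with the mean of all probe sets, 1 without _x_at and _s_at probe sets, 0 with a floor at the 75th percentile and 4 at 1.5-fold. For the combination against sunitinib the higher count of 4 became 1, 1 and 1 under the first 3 of these. At 1.5-fold 1 member was lower with sunitinib, and 1 was higher in the combination against dihydroberberine. The median over members moved with the mean of all probe sets to 1.02 with dihydroberberine, 0.44 in the combination against sunitinib, -0.71 in the combination against dihydroberberine and -0.46 for additivity. Without _x_at and _s_at probe sets, which left 6 members, it was 1.73, -1.08 and -1.13 for dihydroberberine, the combination against dihydroberberine and additivity, and with the stricter floor, also 6 members, 1.16, -0.86 and -0.62. No value past 2-fold changed sign, but a value set to 0 by the floor cannot do so. EGR1, at 1.45 in the combination against untreated and against sunitinib, became 0 in both with the mean of all probe sets. It also became 0 in both with the floor at the 75th percentile. Of 366 values of single members under the alternatives, 291 moved by less than the median SD between probe sets. Some of these could not move, such as genes with 1 probe set under averaging, or genes above both floors under a changed floor. No paired analysis was possible because each group holds 1 array, and for the same reason no array could be left out of a group. With the floor at background probe sets EGR1 went from 4.86 to 4.47 with dihydroberberine alone and from 1.45 to 1.05 in the combination against sunitinib.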
